A study of Arabidopsis thaliana with 4 samples.

Results

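The ATG genes code for the core machinery of autophagy, the pathway by which a cell encloses its own cytoplasm and organelles in a membrane and delivers them to the vacuole for breakdown. All probe sets that the platform's gene table assigned to a single gene with a symbol of ATG or APG (an older name) and a digit were taken, at a mean signal of at least 100 over the 4 arrays. These were 10 genes, each with 1 probe set, of 7240 named genes with a probe set bright enough to be tested (13592 tested probe sets of 22810 in the table). They are 9 genes of the ATG8 family (APG8A, ATG8B, ATG8C, ATG8D, ATG8E, ATG8F, ATG8G, ATG8H and APG8H) and ATG3. Their loci, whose first digit is the chromosome, are AT4G21980 for APG8A, AT4G04620 for ATG8B, AT1G62040 for ATG8C, AT2G05630 for ATG8D, AT2G45170 for ATG8E, AT4G16520 for ATG8F, AT3G60640 for ATG8G, AT3G06420 for ATG8H, AT3G15580 for APG8H and AT5G61500 for ATG3. No candidate was lost to the signal limit: the dimmest, ATG8B, averaged 298, and 0 candidates lay below 100.

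ATG8 is a small ubiquitin-like protein that is attached to a membrane lipid, phosphatidylethanolamine, on the growing autophagosome, where it also binds cargo receptors. Before it can be attached, the protease ATG4 trims its end to expose a glycine; ATG7 then activates it and ATG3, the conjugating enzyme, passes it to the lipid. Yeast has a single ATG8 gene, whereas Arabidopsis has a family of them. In leaves, autophagy recycles nitrogen and carbon from chloroplasts and other cell contents during starvation and senescence.

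The samples were rosette leaves of Arabidopsis thaliana at 3 weeks of age, from plants kept under 16 h of light and 8 h of dark. AAF-OX, a transgenic overexpression line of AAF in the Col-0 background, was compared with its wild type, Col-0, on 2 Affymetrix arrays for each genotype. The labels name neither the promoter that drives AAF nor the number of transgenic lines, and do not say whether plants were pooled or grown separately for each array. The arrays were run as 2 independent sets, and the replicate number in the titles was taken to mark them, so that each set has 1 AAF-OX and 1 Col-0 array. AAF, taken here as locus AT1G66330, gave signals of 7442 and 7706 in the AAF-OX arrays of sets 1 and 2, against 759.9 and 1337 in the Col-0 arrays (log2 2.85 ± 0.15, SE). Limma gave it an adjusted p of 2.53e-06 in the fit with the set as a block and 0.9999 in the fit without it.

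Signals are in the arrays' own units after scaling and cannot be compared between genes, because each probe set binds with its own strength. Differences are given as log2 of signal plus 50, which understates changes, the more so the dimmer the gene. Array medians were 169.0 to 180.2, and the lowest signal of the 10 genes on any array was 206. Of the leaf markers, 3 of 7 were measured, RCA, LHCB4.1 and LHCB4.2, with signals of 13593 to 31590 in all 4 arrays, and the markers of phloem, shoot meristem and flower had no named probe set here. In whole leaves, fewer cells of a type and less RNA per cell cannot be told apart.

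The first comparison asks whether leaves with raised AAF expression differ in autophagy transcripts at 3 weeks of age. None of the 10 genes passed limma's test between AAF-OX and Col-0, with the set as a block (which called 1.55% of all tested probe sets) or without it (0%). ATG8E and ATG8F had both AAF-OX arrays above both Col-0 arrays, as had 7.86% of all tested probe sets, 0 genes had both below, against 10.9% of all, and the other 8 had overlapping genotypes. ATG8E had the largest difference of the 10, with a mean signal of 1702 ± 139 in AAF-OX and 1252 ± 39.1 in Col-0 (SD, n = 2 each).

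ATG8E gave 1800.2 and 1604 in the AAF-OX arrays of sets 1 and 2, against 1224 and 1279 in the Col-0 arrays. The genotypes did not overlap, and the difference was present in both sets, at a log2 of 0.54 in set 1 and 0.32 in set 2. The mean log2 difference was 0.43 ± 0.12 (SE, with the block), a ratio of 1.34 between AAF-OX and Col-0 in signal plus 50, with a 95% interval of 0.16 to 0.69. The unadjusted p was 0.00413 with the block, and limma's p adjusted over all tested probe sets was 0.125. Over the 8 settings run with the block, the adjusted p of ATG8E ranged from 0.0986 to 0.324, so the call failed in each. Without the block the interval was -0.13 to 0.98. The difference lay at the 95.6th percentile of the differences of all tested probe sets. The 10 nearest genes by locus order, among those named and tested, had a median of -0.08 and a range of -0.32 to 0.21.

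ATG8F gave 5566 and 5371 in AAF-OX, against 5009 and 4836 in Col-0. Its genotypes were also separate, with nearly the same small difference in both sets (log2 0.15 in each). The mean was 0.15 ± 0.10, with a 95% interval of -0.07 to 0.37 (limma's adjusted p = 0.673 with the block).

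**Figure D1:**
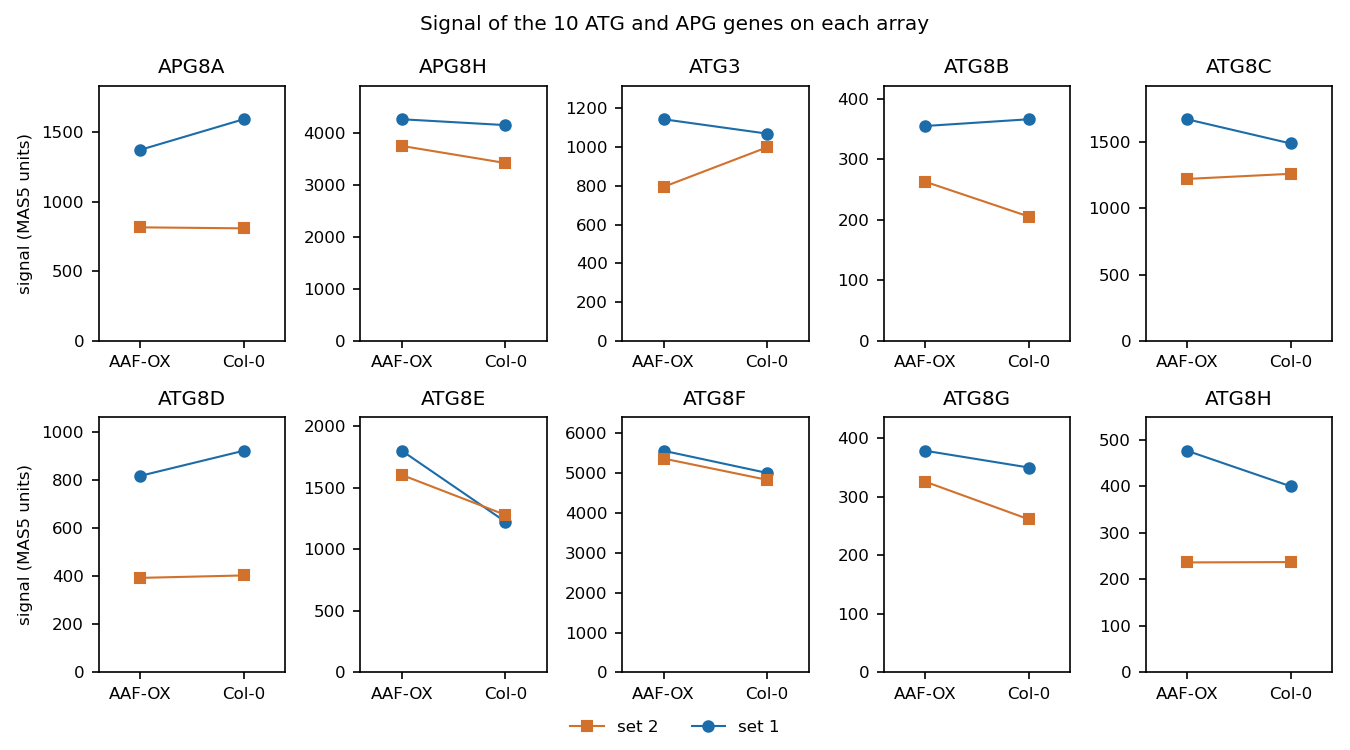
MAS5 signal (vertical axes, each from 0) of the 10 genes in AAF-OX and Col-0, 1 panel per gene, with the 2 arrays of a set joined by a line (orange squares set 2, blue circles set 1). For ATG8E and ATG8F both AAF-OX points lie above both Col-0 points. In all the other genes the set means lie farther apart than the genotype means, by log2 most in ATG8D, APG8A and ATG8H.

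ATG8G and APG8H were also above Col-0 in AAF-OX within both sets, but their genotypes overlapped. ATG8G gave 378 and 326 in AAF-OX, against 349.8 and 261 in Col-0, a log2 difference of 0.10 in set 1 and 0.27 in set 2. APG8H gave 4262 and 3749 in AAF-OX, against 4149 and 3421 in Col-0, a log2 difference of 0.04 in set 1 and 0.13 in set 2. The gene table's name APG8H stands here for locus AT3G15580, which the RefSeq gene table also lists as ATG8I, and ATG8H is a different locus, AT3G06420. ATG8H and ATG8I are known in Arabidopsis as the family members that end directly in the exposed glycine and so need no trimming by ATG4.

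ATG8H gave 476 and 236 in AAF-OX, against 400.0 and 237 in Col-0. Its signals were ordered by set and not by genotype, with a log2 difference between genotypes of 0.23 in set 1 and 0.00 in set 2. ATG8B gave 355 and 263 in AAF-OX, against 366 and 206 in Col-0, with genotype differences of opposite sign in the sets (-0.04 and 0.29). ATG8C gave 1669.8 and 1220.3 in AAF-OX, against 1488 and 1259 in Col-0, again with opposite signs (0.16 and -0.04).

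APG8A, also listed as ATG8A, gave 1371 and 816 in AAF-OX, against 1592 and 808 in Col-0, with a log2 difference of -0.21 in set 1 and 0.01 in set 2. ATG8D was the only gene of the 10 that was below Col-0 in AAF-OX within both sets. It gave 819 and 394 in AAF-OX, against 924 and 404 in Col-0, a log2 difference of -0.16 in set 1 and -0.03 in set 2.

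ATG3, the conjugating enzyme that loads ATG8 onto its lipid, gave 1144 and 795 in AAF-OX, against 1070.1 and 999.6 in Col-0. Its AAF-OX array was the higher in set 1 and the lower in set 2, with log2 differences of 0.09 and -0.31. The mean was -0.11 ± 0.14, with a 95% interval of -0.41 to 0.19.

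Across the 10 genes, 4 were above Col-0 in AAF-OX within both sets, 1 was below in both, and 5 had opposite signs. The same counts over all tested probe sets were 24.4%, 31.3% and 44.3%. The median log2 difference of the 10 was 0.10, with a range of -0.11 to 0.43, against a median of -0.02 over all tested probe sets, of which the middle 80% ran from -0.24 to 0.26. With the block, limma called 0 of the 10 at an adjusted p under 0.05, and 210 of all 13592. Without it limma called 0 of the 10 and 0 of all. At an unadjusted p under 0.05 the block gave 1 of the 10, ATG8E, and 1495 of all (11.0%), and without it the counts were 0 and 117. The 95% intervals of the blocked fit reached a log2 of 0.69 upwards for ATG8E and 0.17 to 0.51 for the other 9, and downwards to -0.41 for ATG3.

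**Figure D2:**
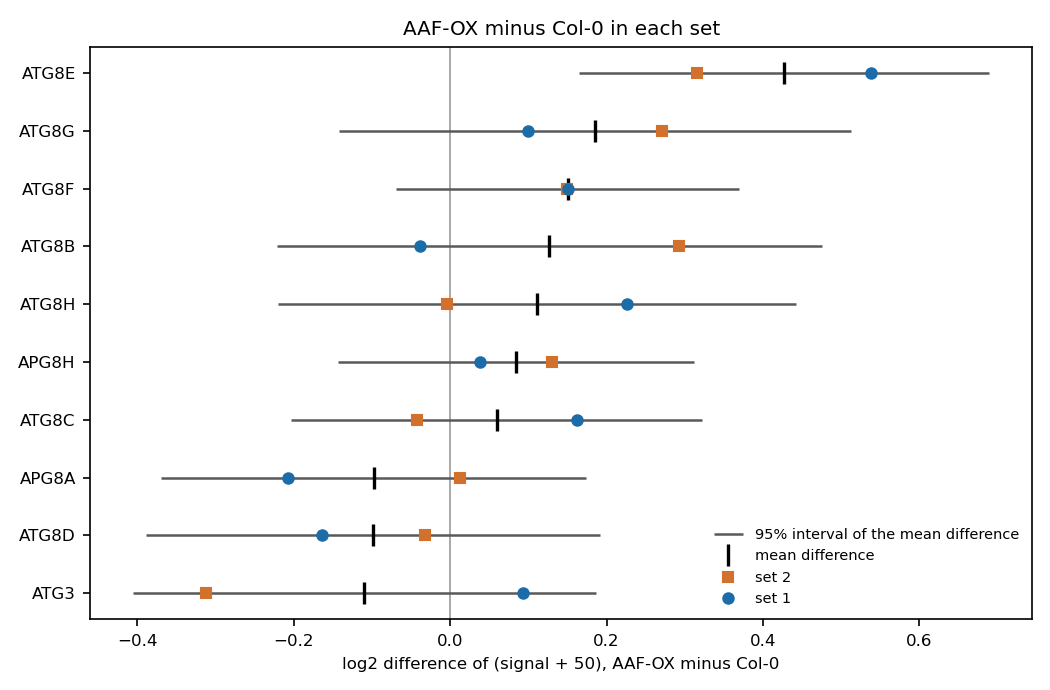
Log2 difference of signal plus 50, AAF-OX minus Col-0 (horizontal axis), for each gene in set 2 (orange squares) and set 1 (blue circles), with the mean (black ticks) and its 95% interval from the fit with the set as a block (grey lines). ATG8E is the only gene whose interval, 0.16 to 0.69, lies on a single side of 0, and the sets disagree in sign for 5 genes.

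The second comparison concerns the sets, which differ in an unstated way. Their difference adds to the spread in the fit without the block and is taken out in the fit with it. ATG transcripts were lower in set 2 than in set 1 for 9 of the 10 genes in both genotypes, against 44.5% of all tested probe sets. Limma, with genotype as a term, called 5 of the 10 lower in set 2, all of the ATG8 family (ATG8D, APG8A, ATG8H, ATG8B and ATG8C), against 22.0% of all. In 8 of the 10 genes both set 2 arrays lay below both set 1 arrays, against 38.7% of all. With 4 arrays, a gene with separate genotypes cannot also have separate sets, so ATG8E and ATG8F could not be among these.

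ATG8D differed most between sets, with a mean signal of 399 in set 2 and 871 in set 1, and signal plus 50 was 2.05-fold lower in set 2 (log2 -1.03 ± 0.13, SE; limma's adjusted p = 8.52e-05). The difference was -0.97 in AAF-OX and -1.10 in Col-0. APG8A averaged 812 in set 2 and 1482 in set 1 (log2 -0.83 ± 0.12, adjusted p = 0.000279 by limma), at -0.72 in AAF-OX and -0.94 in Col-0. Between genotypes, ATG8D and APG8A had log2 differences of only -0.10 each.

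ATG8H averaged 237 in set 2 and 438 in set 1 (log2 -0.76 ± 0.15, limma's adjusted p = 0.0019). ATG8B averaged 234 in set 2 and 361 in set 1 (log2 -0.54 ± 0.16, limma's adjusted p = 0.0188), with -0.37 in AAF-OX and -0.70 in Col-0. ATG8C averaged 1239.5 in set 2 and 1579 in set 1 (log2 -0.33 ± 0.12), close to the threshold (limma's adjusted p = 0.0438). The calls of ATG8D and APG8A held in all 13 settings, each array left out included. The call of ATG8H was lost without AAF-OX replicate 1 (adjusted p = 0.0583), and that of ATG8B without AAF-OX replicate 1, Col-0 replicate 1 or Col-0 replicate 2 (0.119, 0.143 and 0.149), in fits that have no genotype term. With every array kept, that of ATG8B was also lost without the filter on dim probe sets (adjusted p = 0.0711). ATG8C was called in 3 of 13 settings, and its adjusted p was 0.384 and 0.141 without AAF-OX replicates 1 and 2 and 0.160 and 0.113 without Col-0 replicates 1 and 2.

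The other genes with separate sets, ATG3, ATG8G and APG8H, had lower signals on both set 2 arrays without passing the test over all probe sets. ATG3 averaged 898 in set 2 and 1107 in set 1 (log2 -0.30, limma's adjusted p = 0.103), with -0.50 in AAF-OX and -0.09 in Col-0. ATG8G averaged 294 in set 2 and 364 in set 1 (log2 -0.28, limma's adjusted p = 0.167), and APG8H 3585 in set 2 and 4206 in set 1 (log2 -0.23, limma's adjusted p = 0.102).

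ATG8E and ATG8F differed least between the sets, each by a log2 of -0.05, with 95% intervals of -0.31 to 0.21 and -0.27 to 0.17. ATG8E was the single gene whose genotypes moved in opposite directions, with -0.16 in AAF-OX and 0.06 in Col-0. ATG8F was at -0.05 in both.

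**Figure D3:**
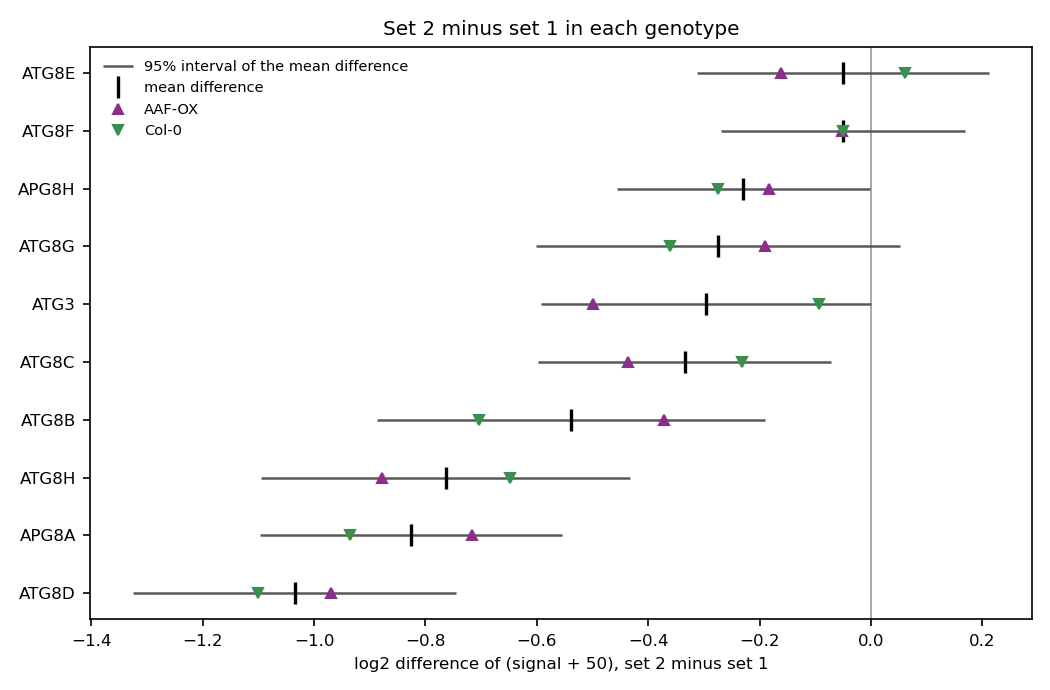
Log2 difference of signal plus 50, set 2 minus set 1 (horizontal axis), for each gene in AAF-OX (purple upward triangles) and Col-0 (green downward triangles), with the mean (black ticks) and its 95% interval from the fit with a genotype term (grey lines). The genes run from ATG8D at -1.03 to ATG8E and ATG8F at -0.05, and AAF-OX and Col-0 lie on the same side of 0 for all genes but ATG8E.

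Large parts of the transcriptome differed between the sets, so these counts are read against all probe sets, of which 39.4% were called between the sets. Limma called 0 of the 10 genes higher in set 2, against 17.3% of all 13592. The median log2 difference between sets was -0.32 for the 10 genes, with a range of -1.03 to -0.05, and -0.05 for all tested probe sets, whose middle 80% ran from -0.68 to 0.61. Of the 5 measured markers of cell types, LHCB4.1, LHCB4.2 and PYK10 were called higher in set 2, while RCA and FMA did not pass the test (limma's adjusted p = 0.0904 and 0.05775). The summed signal of the 3 measured leaf markers was 82153 to 87338 in set 2 and 59444 to 69061 in set 1, the guard cell gene FMA (1 of 2 listed markers) had 193 to 289 in set 2 and 306 to 360.0 in set 1, and the root-enriched gene PYK10 (1 of 2 listed) had 1527 to 1974 in set 2 and 629 to 1075 in set 1. Between genotypes, all 5 markers were lower in AAF-OX within both sets, against 31.3% of all tested probe sets. The log2 differences were -0.54 for PYK10, -0.34 for FMA, -0.20 for LHCB4.1 and LHCB4.2 each, and -0.09 for RCA. In set 2 the genotypes were nearly equal for LHCB4.2, at -0.004 against -0.39 in set 1. RCA was at -0.13 in set 1 and -0.05 in set 2. With the block, limma called 0 of them. The part of the markers in the set or genotype differences of the ATG genes was not tested.

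**Figure D4:**
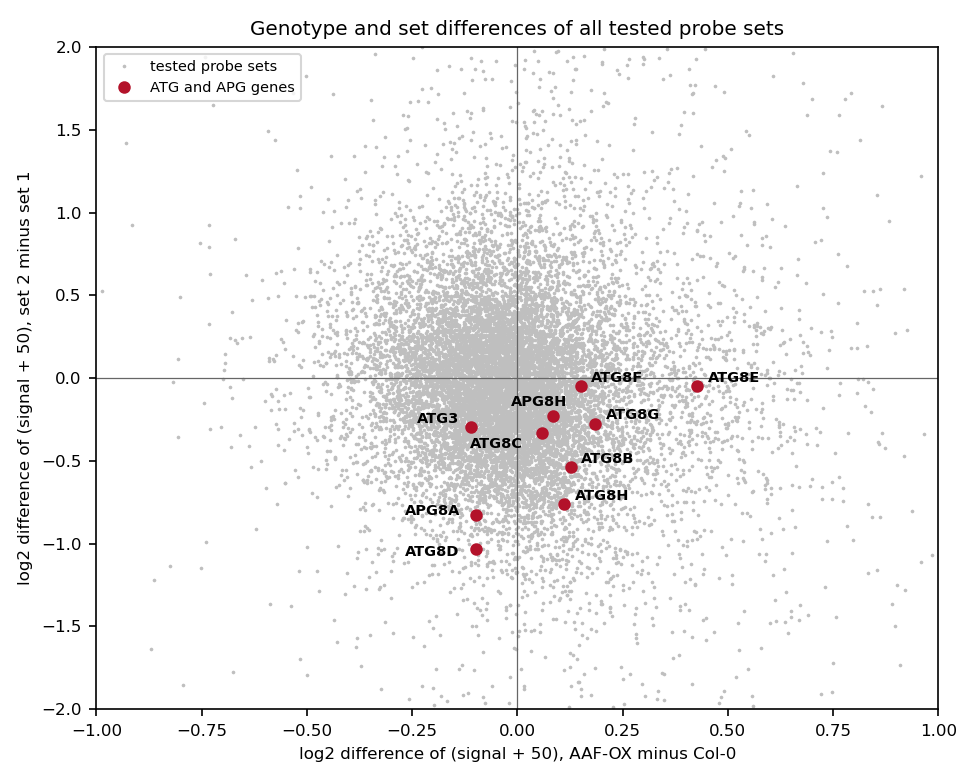
Log2 differences of signal plus 50 for 13374 of the 13592 tested probe sets (grey; the other 218 lie outside the axes), AAF-OX minus Col-0 on the horizontal axis and set 2 minus set 1 on the vertical axis, with the 10 ATG and APG genes in red. All 10 lie below 0 on the set axis, from -1.03 to -0.05, and within -0.11 to 0.43 on the genotype axis.

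The remaining machinery was looked up by locus in lists of known autophagy genes. Of 39 ATG loci listed, 19 had a named probe set and 18 were tested, among them the 10 genes above. Of the 8 added loci, only AT5G66930 is named in the gene tables, as ATG101, a subunit of the ATG1 kinase complex that starts autophagosome formation. Together with AT3G61960 (below), it had the smallest p of the 8 with the block and was named by that rule, so after the values were seen. AT5G66930 gave 516 and 402 in AAF-OX, against 412 and 348 in Col-0 (log2 0.24, limma's adjusted p = 0.618 with the block).

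Of these 8 loci, 0 were called between genotypes (1.55% of all tested probe sets with the block). Within both sets, 4 were above Col-0 in AAF-OX (24.4% of all) and 2 below (31.3% of all). Their median log2 difference was 0.13. The smallest p among them was that of AT3G61960, for which the tables give no name. It gave 722 and 692 in AAF-OX, against 554 and 455 in Col-0, with separate genotypes and a log2 difference of 0.35 in set 1 and 0.56 in set 2. Its mean was 0.46 ± 0.13, close in size to that of ATG8E, with an unadjusted p of 0.0056 and limma's adjusted p = 0.149 with the block. Between the sets, 6 of the 8 were lower in set 2 in both genotypes (44.5% of all tested probe sets) and 0 were called lower (22.0% of all) or higher, with a median of -0.20.

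Upstream of the pathway, the TOR kinase holds autophagy back in fed cells and SnRK1, an energy-sensing kinase, promotes it. Of 12 listed genes of these kinase complexes 4 were tested, and 0 were called between genotypes (1.55% of all tested probe sets with the block). AKINBETA1, a regulatory subunit of SnRK1, gave 2829.5 and 1595 in AAF-OX, against 2398 and 1484 in Col-0 (log2 0.17, limma's adjusted p = 0.679 with the block). Its signals were ordered by set, with a mean of 1539 in set 2 and 2614 in set 1 (log2 -0.74, limma's adjusted p = 0.000303), and 2 of the 4 genes were called lower in set 2, it and AT4G16360, against 22.0% of all tested probe sets. RAPTOR1, which binds substrates for TOR, gave 282 and 389 in AAF-OX, against 375 and 383 in Col-0 (log2 -0.17, limma's adjusted p = 0.806).

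Downstream, the contents of autophagosomes are degraded by proteases in the vacuole. Of 10 listed proteases 4 passed the signal limit, BETA-VPE among them, and 0 were called between genotypes (1.55% of all tested probe sets with the block). BETA-VPE and GAMMA-VPE are vacuolar processing enzymes, which mature other vacuolar proteins. Both were named for the smallest p of the 4, but the p of BETA-VPE is not read as a result. BETA-VPE gave 38.9 and 142 in AAF-OX, against 82.0 and 195 in Col-0 (log2 -0.46). Its mean was 90.4 in AAF-OX and 139 in Col-0, so that by genotype only Col-0 reached the signal limit. Its genotype difference is therefore given without a test. GAMMA-VPE gave 5152 and 6049 in AAF-OX, against 5034 and 4988 in Col-0, with separate genotypes at a log2 of 0.15 (limma's adjusted p = 0.688). Between sets, 2 of the 4, APA1 and AT4G01610, were called lower in set 2, against 22.0% of all tested probe sets. BETA-VPE averaged 169 in set 2 and 60.4 in set 1, so that it reached the signal limit of 100 through set 2 alone, and its set difference is given without a test. Of 11 listed genes for phosphoinositide signalling and membrane fusion 2 were tested, AT2G32760 and AT4G34660, both without a name in the tables, with log2 differences between genotypes of -0.15 and 0.16 (limma's adjusted p = 0.844 and 0.816). Of the 7 listed cargo receptors and adaptors 0 had a named probe set, so they were not examined.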

How the data were processed

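The deposited intensity values were made with MAS5, as named in the submitters' processing notes without a version, and hold 1 value per probe set and array from biotin-labelled RNA. Each array has a 2%-trimmed mean of 500.04 to 500.05. Detection calls and scanner files were not used here, and the number of arrays limits the precision.

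Of 22810 probe sets, 64 controls and 9154 with a mean under 100 were left out, and log2(signal + 50) of the other 13592 was fitted in limma (version 3.58.1, R 4.3.3) by lmFit, then eBayes allowing the prior variance to follow intensity. Tests were two-sided, with Benjamini-Hochberg adjustment over the 13592 and a threshold of 0.05. The genotype model has 2 residual degrees of freedom, and the model with the set as a replicate block has 1 and borrows the rest across probe sets. The log2 difference is the same in both, and SEs and intervals are those of the block unless stated otherwise. The numbers pair the arrays because the series describes 2 independent sets, and same-numbered arrays' deviations from group means correlated at 0.856. P-values rest on the spread between arrays, which may be technical. In fits with both set and genotype it is the spread left after both are taken out, moderated across probe sets.

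The platform's gene table names 1 gene for 13513 probe sets and several for 503, and 8730 are unnamed here. Gene names are those of the platform's gene table, and loci and further names come from the RefSeq TAIR10.1 gene table. No coordinates are given, since no build is named for the probes. All 10 probe sets are of the plain _at type, designed for a single transcript. Cross-hybridisation between ATG8 copies was not tested. All members are named, with AAF and, of each list, the 2 genes of smallest p, as none was called between genotypes. AT4G16360, APA1 and AT4G01610 were named after their values were seen. The members, the 11 lists and the tests were chosen with earlier results of these data known.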

Additional observations from a re-analysis of the deposited data

Results flagged for a closer look

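The difference between AAF-OX and Col-0 had opposite signs in the 2 sets for 5 genes, with 1 pair of arrays in each set, so that none of these contrasts was tested. The log2 difference in set 2 less that in set 1 was -0.40 for ATG3, 0.33 for ATG8B, -0.23 for ATG8H, 0.22 for APG8A and -0.20 for ATG8C. For ATG8H and APG8A the genotypes were nearly equal in set 2 (log2 -0.004 and 0.01). ATG8B in set 1 and ATG8C in set 2 were also small, at -0.04 each. For ATG8E, the difference between sets had opposite signs in the genotypes, and that in AAF-OX less that in Col-0 was -0.22, likewise not tested.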

How the results depend on the processing

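With the replicate block, limma called 210 probe sets in place of 0, and AAF, at the same log2 of 2.85, passed the test. The block changed no call of the 10 genes or of the lists, which stayed at 0 between genotypes in every setting run. With the block and another setting the calls were 76 and 276 at pseudocounts of 1 and 100, 18 without the filter on dim probe sets, 233 with the filter at a mean of 250, 292 after quantile normalization, 137 after median centring and 21 without the intensity trend, and AAF was called in each at 2.91, 2.79, 2.85, 2.85, 2.88, 2.86 and 2.85. The block, the filters and the intensity trend leave the members' log2 differences unchanged. Of the settings that keep every array, only the pseudocounts, quantile normalization and median centring could alter them. Under these the members' genotype differences kept their direction.

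With 1 array left out, the sets are no longer balanced between genotypes, and 13 member values changed sign while 27 did not. The ranges were -0.57 to 0.37 for APG8A, -0.053 to 0.22 for APG8H, -0.36 to 0.14 for ATG3, -0.23 to 0.48 for ATG8B, -0.16 to 0.28 for ATG8C, -0.65 to 0.45 for ATG8D and -0.33 to 0.55 for ATG8H, while ATG8E (0.35 to 0.51), ATG8F (0.125 to 0.176) and ATG8G (0.00501 without Col-0 replicate 2 to 0.366 without Col-0 replicate 1) kept their sign.

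Between sets, the members called were 3 in place of 5 without the filter, and 2 to 4 with 1 array left out, where all probe sets gave 2331 to 3822 calls in place of 5350. Those fits have no genotype term, which would leave no residual degrees of freedom. ATG8E and ATG8F became 0.0087 and 0.0083 after median centring, and ran from -0.32 to 0.22 and from -0.13 to 0.025 with 1 array left out. The calls also fell to 4 without the genotype term, at a pseudocount of 1, after median centring or without the intensity trend. ATG8C was the gene lost each time. Quantile normalization gave 5, with ATG8C lost and APG8H gained (limma's adjusted p = 0.0549 and 0.0243). The cause of these changes was not tested. The mean over several probe sets of a gene was not run, since each gene had 1.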
